A study of Mus musculus with 24 samples.

Results

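H3K9ac peak lists of KAT2a knockout and scramble spheroids were compared promoter by promoter. They make up 6 of the 24 samples of the study, and 6 of its 12 H3K9ac lists. The libraries were taken by their labels, with 3 per group. The cells were 4T1, a mouse mammary carcinoma line that spreads to the lung. They were grown as 3D spheroids and collected after 5 days in medium with 75 µM palmitate, the saturated fatty acid that the study linked to metastatic growth in the lung. All lines came from parental 4T1 cells with doxycycline-inducible Cas9. The knockout line received a guide against Kat2a by lentivirus and was selected with puromycin, and the scramble line carried a guide that does not target the mouse genome. Knockout and control thus shared palmitate, Cas9 and selection. Guides against different exons of Kat2a were made, and which of them these libraries carried, and whether the line was a pool or a clone, is not given in the sources used here. Nothing in the labels says that the 3 libraries of a group came from separate cultures, so p-values measure the spread between these libraries, which may be technical. The other H3K9ac lists, of CPT1a knockout spheroids with and without acetate, are used here for side-by-side values and 1 added fit. The labels give palmitate for the CPT1a knockout alone and acetate, without naming palmitate, for the group with acetate, so that contrasts with the latter also differ in the labelled supplement. A figure legend of the study describes both groups as grown with palmitate.

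Acetylation of lysine 9 on histone H3 is laid down on nucleosomes around active start sites. KAT2A, also called GCN5, is an acetyltransferase that writes this mark as the catalytic subunit of the SAGA and ATAC coactivator complexes, and its close relative KAT2B (PCAF) can take its place in them. Both use acetyl-CoA, which cells can make by oxidising fatty acids, as the donor of the acetyl group.

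A promoter was taken as the 1000 bp on either side of any start site of a protein-coding gene. Of 21755 genes, 10987 carried a promoter peak in all 6 libraries and 9914 in none. The enrichment column of the lists (fold over local background) was not scaled between libraries, so each of the 10987 promoters was given its percentile within each library, from 0 for the weakest to 100 for the strongest. A higher or lower percentile is therefore a change of place among promoters and not a change in the total amount of the mark. The peak lists hold no check of the knockout itself. The promoter of Kat2a, on chromosome 11 with its start at position 100712173, kept its peak in all 6 libraries and stood at the percentiles 7.40, 9.57 and 7.78 in scramble and 43.4, 14.6 and 31.6 in knockout.

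The 2 groups differed as whole lists. The scramble lists held 29153 to 34330 peaks and the knockout lists 22640 to 24091. The calling depth, the genome-wide number of reads over a base that the caller used as background, was recovered from the lists as 1.87 to 2.52 in scramble and 1.02 to 1.82 in knockout. The knockout lists had more promoters with a peak, 11589, 11659 and 11466, against 11401, 11227 and 11150 in scramble, a difference in means of 312.0 (two-sided exact permutation test, p = 0.1, the smallest that 3 against 3 allow). The median fold enrichment at the 10987 promoters was 25.8 to 30.6 in knockout and 18.6 to 19.2 in scramble. In scramble 43.5 to 55.1% of those promoters were covered by 2 or more separate peaks, and in knockout 18.3 to 31.3%, a difference of -26.3 percentage points (exact permutation test, p = 0.1). None of these measures overlapped between the groups, and all of them can move ranks. Their part in the results below was not tested beyond the settings named there.

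**Figure D1:**
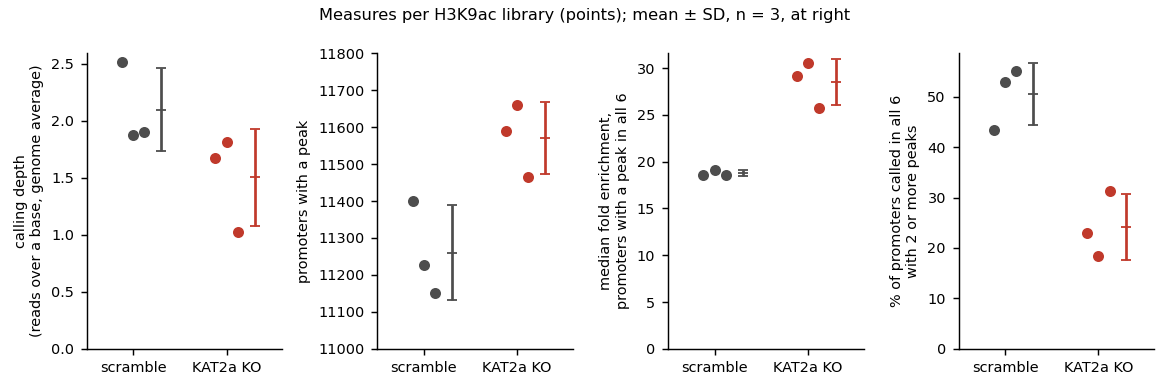
Calling depth, number of promoters with a peak (an axis that does not start at 0), median fold enrichment at 10987 promoters and the share of those promoters with 2 or more peaks, for each of 3 scramble (grey) and 3 KAT2a knockout (red) libraries, with mean ± SD beside them. In all 4 panels the libraries of a group lie on 1 side of those of the other.

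Defining markers matched the labelled cell type. All 6 epithelial markers (Epcam, Cdh1, Krt8, Krt18, Krt19 and Cldn7) had a promoter peak in all 6 libraries. None of the 6 leukocyte markers did, and 5 of them, Ptprc included, had none in any library. Of 6 endothelial and fibroblast markers, 4 had no peak in any library and 1 had a peak in all 6.

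Promoters changed places between the groups, but no promoter passed the test. limma on the percentiles gave 0 of 10987 promoters at an adjusted p under 0.05 in either direction (0% called), with a smallest adjusted p of 0.0618. At an unadjusted p under 0.05 there were 2418 promoters (22.0%), of which 1199 stood higher in knockout and 1219 lower. The 3 ranks of one group lay wholly above those of the other at 1568 promoters higher in knockout (14.3% called) and 1655 lower (15.1% called). Median fold enrichment at the 1568 was 33.56 in knockout and 15.88 in scramble. At the 1655 it was 25.81 in knockout and 23.23 in scramble, so a lower rank need not mean a lower ratio. The count of calls turned on the setting: ranking by -log10 p in place of fold enrichment gave 1126 higher and 1221 lower, and the fit on all 12 libraries gave 191 and 300. Spearman correlations of promoter ranks, as a description over 10987 genes, were 0.787 to 0.834 within scramble, 0.754 to 0.822 within knockout and 0.639 to 0.741 between the groups. In these bulk samples, fewer cells that carry the mark at a promoter and less of it per cell cannot be told apart. Genes are named below by the size of their difference among those whose ranks did not overlap.

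The largest step up was at Zfp1, a zinc finger gene on chromosome 8. It stood at the percentiles 20.6, 9.25 and 20.3 in scramble and 90.8, 75.2 and 81.6 in knockout, a difference of 65.81 ± 9.38 (SE; limma, adjusted p = 0.0629). Ube2g1, a ubiquitin-conjugating enzyme, moved from 15.5, 28.6 and 51.3 to 96.9, 91.1 and 96.3. Its knockout values were all near the top of the list, and its scramble values were spread. Crk, an adaptor in kinase signalling, had 25.3, 30.2 and 71.3 in scramble and 98.7, 98.0 and 98.5 in knockout, so that scramble replicate 3 came closest to the knockout values. Pitpna, a phosphatidylinositol transfer protein, likewise had a single scramble value, 52.9, well above its other two of 17.0 and 18.2, against 81.3, 94.3 and 98.5 in knockout.

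Among the other steps up, Srsf6, a splicing factor of the SR family, had 18.5, 53.3 and 25.5 in scramble and 91.8, 80.9 and 97.7 in knockout. Nr1d2, the circadian repressor REV-ERB beta, had 19.9, 30.9 and 40.6 against 85.6, 80.5 and 90.3. Sik2, a salt-inducible kinase, had 39.7, 27.4 and 23.2 against 83.3, 83.0 and 87.6. For Nr1d2 and Sik2 the gap between the groups exceeded the spread within either, and for Srsf6 it was smaller than the spread within scramble. Med30, a subunit of Mediator, differed by 54.55, Zfp335 by 58.14, Dip2c by 58.49 and Arf5, a small GTPase of vesicle traffic, by 54.91. Gmfg, a regulator of actin branching, differed by 54.69 but was uneven in knockout, with 89.1, 83.0 and 32.0 against 19.2, 9.73 and 11.1. The strongest point of its peak lay 1618 and 1605 bp from the start in knockout replicates 1 and 2 and 481 to 556 bp in the other 4 libraries, and its difference was 0.65 with a required overlap of 200 bp and 0.66 with a window of 500 bp.

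Among the largest steps down, Foxc2, a forkhead factor of mesenchymal cells, stood at 84.8, 81.0 and 72.7 in scramble and 20.8, 11.0 and 8.06 in knockout, a difference of -66.23 ± 8.92 (SE; limma, adjusted p = 0.0629). Ftl1, the light chain of the iron store ferritin, had 87.8, 93.0 and 85.7 against 30.9, 9.03 and 42.8. Cp, which encodes the copper-carrying ferroxidase ceruloplasmin, had 75.4, 58.1 and 73.5 against 11.9, 13.3 and 10.8. Neither gene's groups came near each other, and the 3 knockout values of Cp were closer together than its scramble values.

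Rnf43, a ubiquitin ligase that removes Wnt receptors from the cell surface, had 72.1, 52.5 and 76.3 in scramble and 9.83, 9.73 and 9.18 in knockout. With the GC trend of each library removed, the differences of Rnf43, Cp and Lmo7 were -38.17, -37.81 and -37.86 in place of -57.35, -56.98 and -57.04. Plscr2, a phospholipid scramblase, had 97.5, 90.6 and 94.0 against 26.5, 34.1 and 30.4. Kdm5a, a demethylase of H3K4, had 88.8, 94.6 and 92.3 against 48.6, 42.3 and 14.1. At all 3 promoters the lowest scramble value lay far above the highest knockout value. Il7, the lymphocyte growth factor interleukin 7, differed by -58.71, Cdc42bpa, a kinase acting with CDC42, by -63.03, and Rnf41, a ubiquitin ligase for ERBB3, by -55.43. Cep170, a centrosome gene that shared its peak with Sdccag8, differed by -59.79 with knockout values of 70.2, 19.1 and 14.6. Lmo7, a LIM domain protein, also stood lower, but its strongest peak in knockout replicates 2 and 3 lay at a start site more than 100 kb from the start site used in scramble, so that its value compares different peaks.

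**Figure D2:**
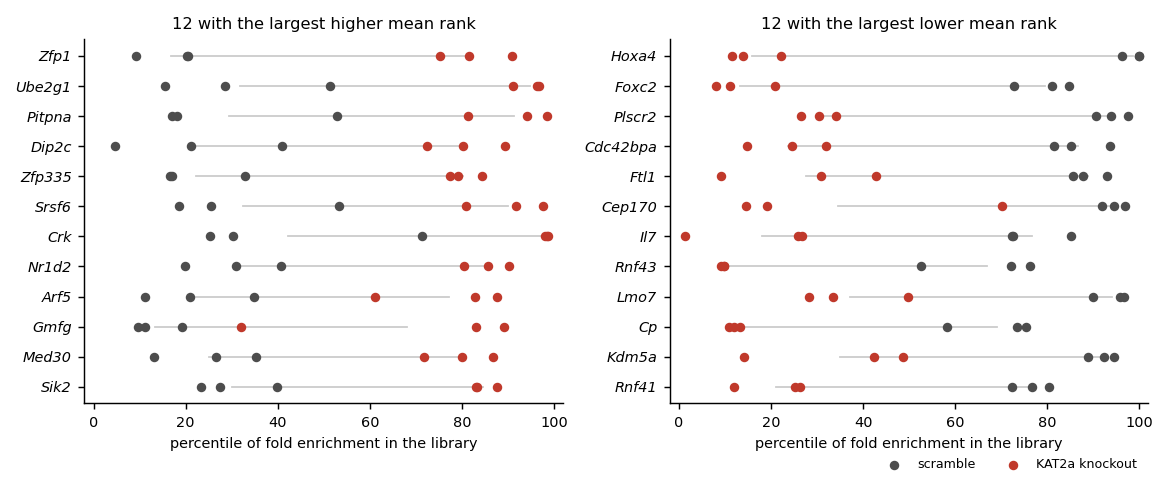
Within-library percentile of fold enrichment for the 12 promoters with the largest difference in each direction among those whose ranks did not overlap. Points are libraries (grey scramble, red KAT2a knockout) and the line joins the group means. Zfp1 goes from 9.25 to 20.6 in scramble to 75.2 to 90.8 in knockout, and Hoxa4 from 96.2 to 99.9 down to 11.5 to 22.1.

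At 8 of these 24 promoters the strongest point of the peak lay over 1000 bp from every start site of the gene in at least 1 library (Zfp335, Nr1d2, Gmfg, Hoxa4, Foxc2, Plscr2, Cep170 and Lmo7). Where all 10987 promoters were held to that limit, 9286 (84.5%) stayed, with 1336 (14.4%) higher and 1371 (14.8%) lower, close to the shares over all tested promoters.

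The largest difference of all, at Hoxa4, went with a change in how a broad domain was cut. The Hoxa genes specify position along the body axis and lie side by side on chromosome 6. The Hoxa4 start is at position 52191753. In each scramble library 1 peak of 25603, 23421 and 23662 bp ran from Hoxa4 across Hoxa5 and Hoxa6, and its strongest point lay 19176, 18190 and 17824 bp from the Hoxa4 start. In knockout the domain was listed as separate peaks, with 3239, 6446 and 5443 bp over Hoxa4. Hoxa4 therefore ranked at 99.9, 99.9 and 96.2 in scramble, by the summit of the shared peak, and at 11.5, 13.8 and 22.1 in knockout, by its own. Hoxa5, which kept the strong part of the domain, had 99.9, 99.9 and 96.2 against 98.0, 96.5 and 94.9, and its ranks overlapped.

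Covered length over the whole Hoxa cluster changed far less than the Hoxa4 rank. It was 73.6, 64.9 and 68.8 kb in scramble and 63.4, 64.6 and 60 kb in knockout, so that every knockout library lay below every scramble library, by little at the nearest pair. Toward the other end, the rank of Hoxa9 moved from 83.4, 77.0 and 82.8 to 40.6, 54.8 and 57.2. Its peaks were of like width (3285, 3159 and 3074 bp in scramble, 2621 to 3156 bp in knockout). Fold enrichment at Hoxa9 overlapped, with 26.5, 25.8 and 28.1 in scramble and 26.5, 32.0 and 27.9 in knockout. The rank of Hoxa10 differed by -24.90, while its fold enrichment was 27.4, 24.1 and 27.2 in scramble and 29.4, 33.1 and 29.2 in knockout. Hoxa13 had a peak in 3 of 3 knockout and 0 of 3 scramble libraries. Of 12 Hox promoters tested, 5 ranked lower without overlap (Hoxa3, Hoxa4, Hoxa9, Hoxa10 and Hoxc6) and 0 higher, with a median difference of -8.28, against 0.07 over all tested promoters (0 higher, 4 lower and -6.86 with the GC trend removed). At 9 of the 12 the summit was over 1000 bp from the start site in some library.

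Over all tested promoters base composition went with direction, though not at each promoter. Printed here are the 200 bases upstream of the start site of 4 promoters, chosen after their values were seen, in order from higher to lower in knockout. All are from GRCm38.p6 and read 5′ to 3′ on the gene's strand, with capitals marking each CG dinucleotide. The promoters are Zfp1 (chr8:111643337-111643536, plus strand), Jund (chr8:70698749-70698948, plus strand), Hist1h2bm (chr13:21721844-21722043, plus strand) and Hoxa4 (chr6:52191754-52191953, minus strand).
Zfp1: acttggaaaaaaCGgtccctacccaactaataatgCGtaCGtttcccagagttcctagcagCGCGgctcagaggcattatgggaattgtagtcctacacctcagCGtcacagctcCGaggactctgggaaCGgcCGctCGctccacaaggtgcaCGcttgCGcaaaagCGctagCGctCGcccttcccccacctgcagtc
Jund: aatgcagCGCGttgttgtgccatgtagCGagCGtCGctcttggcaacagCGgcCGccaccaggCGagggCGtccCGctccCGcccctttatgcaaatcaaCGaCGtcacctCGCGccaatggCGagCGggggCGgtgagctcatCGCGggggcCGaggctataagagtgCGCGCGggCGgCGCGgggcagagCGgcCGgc
Hist1h2bm: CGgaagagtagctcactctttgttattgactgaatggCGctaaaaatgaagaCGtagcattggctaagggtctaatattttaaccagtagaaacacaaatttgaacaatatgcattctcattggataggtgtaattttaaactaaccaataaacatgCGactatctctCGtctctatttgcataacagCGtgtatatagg
Hoxa4: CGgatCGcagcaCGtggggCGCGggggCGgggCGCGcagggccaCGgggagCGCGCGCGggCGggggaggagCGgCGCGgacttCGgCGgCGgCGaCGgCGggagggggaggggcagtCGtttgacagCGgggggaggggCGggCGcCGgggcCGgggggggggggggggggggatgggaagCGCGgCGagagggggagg

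Jund, a subunit of AP-1, had 29 CG in this stretch and a GC content of 70.0%, and it ranked higher in knockout. Hist1h2bm had 6 CG and 36.0% GC, and it ranked lower. Over tested promoters the medians were 16 CG and 64.5% GC. Zfp1 ranked higher with 15 CG and 57.5% GC, below both medians, as was Grhl2, described further on, with 13 CG and 60.5% GC. Slc7a11, which ranked lower, had 3 CG and 42.0% GC. Hoxa4 went against the pattern, with 32 CG, 84.5% GC and the largest difference downward.

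Over all tested promoters split into 5 classes by the GC content of the 2-kb window, the class lowest in GC (33.6 to 49.6%) had 4.5% of promoters higher and 28.9% lower, with a median difference of -6.96. The class highest in GC (59.2 to 78.0%) had 24.4% higher and 7.9% lower, with a median of 5.24. The shares ran in steps between those ends, 9.3, 14.1 and 19.1% higher and 16.2, 13.5 and 8.8% lower. The Spearman correlation of the difference with GC content was 0.302 over 10987 genes, which share libraries and neighbours and are not independent. With values recomputed at equal calling depth the lowest and highest classes kept medians of -6.80 and 5.92. GC content can also enter through amplification and the caller's background, and its part was not tested. Counts of gene groups are therefore given below also with the GC trend of each library removed. They can be read against the 14.3% higher and 15.1% lower over all tested promoters. In the fit of the 6 libraries by fold enrichment, no member of any group passed the test.

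Motif letters in the 200 bases upstream of the start, searched on both strands, were counted in each set. GGGCGG, the core of the GC box, was in 68.0% of promoters that ranked higher and 55.6% of those lower, against 60.2% of tested and 39.4% of all protein-coding promoters. CCAAT was in 25.1% and 29.9%, against 28% of tested and 28% of all. TATAAA was in 2.4% and 3.9%, against 3.2% of tested and 9.2% of all. TGACTCA, the AP-1 site, was in 2.2% and 2.4%, against 2.0% of tested and 3.1% of all. A loose NF-kB site (GGGA, any 4 bases, CC) was in 23.8% and 18.1%, against 20.4% of tested and 16.7% of all.

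**Figure D3:**
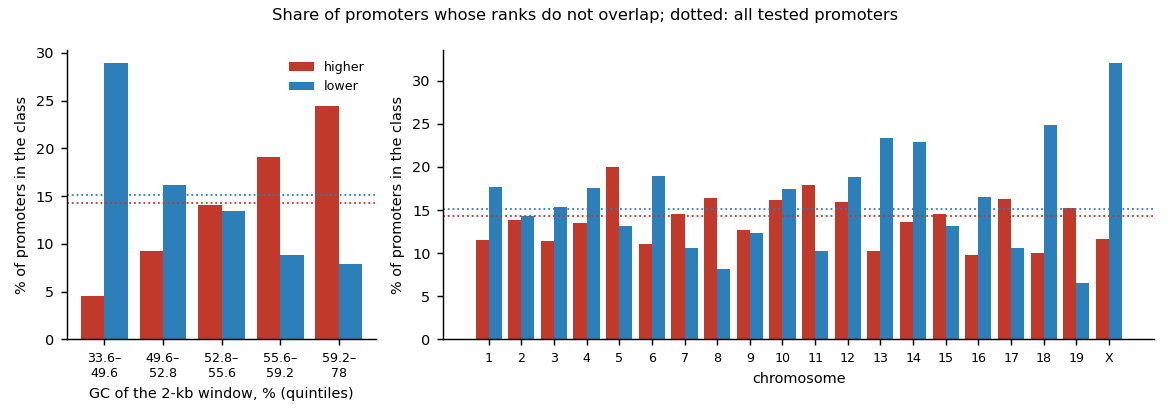
Share of tested promoters whose ranks did not overlap, higher (red) or lower (blue) in KAT2a knockout, by 5 classes of GC content of the 2-kb window (left) and by chromosome (right). Dotted lines are the shares over all 10987 promoters, 14.3% and 15.1%. The lower share falls from 28.9% to 7.9% with rising GC, and chromosome X has the highest lower share, 32.0%.

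By chromosome, X had the highest lower share. Of 294 tested promoters on X, 94 (32.0%) ranked lower and 34 (11.6%) higher, with a median difference of -5.52, or -2.56 with the GC trend removed. Among them were Taf1, a TFIID subunit that binds acetyl-lysine, with 72.1, 83.5 and 71.8 in scramble and 52.9, 46.8 and 41.7 in knockout, Rps4x, a ribosomal protein, which differed by -37.95, and Ikbkg, the NEMO subunit of the IkB kinase, which differed by -28.35. Chromosomes 18, 13 and 14 had 24.9, 23.3 and 22.9% lower, with medians of -2.16, -1.0 and -1.46 once the GC trend was removed. At the other end, chromosome 19 had 6.6% lower and 15.2% higher, and chromosome 8 had 8.2% lower and 16.4% higher. Chromosome 5 had the highest higher share, 20.0%. Chromosome 11, which carries Kat2a, had 10.2% lower and 17.9% higher.

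The genes of the SAGA and ATAC complexes had members on both sides. Of 26 tested, 4 ranked higher without overlap and 6 lower (15.4 and 23.1%), with a median difference of -2.59. After removal of the GC trend 3 were higher and 4 lower, and the median was 0.78, or 1.57 when ranked by -log10 p. The 4 were Kat2a itself, with a difference of 21.62 ± 6.64 (SE; limma, adjusted p = 0.121), Kat2b (19.21 ± 8.88, adjusted p = 0.250, and 10.89 without scramble replicate 2), and Usp22 and Atxn7l3 of the module that removes ubiquitin from H2B. Usp22 had 7.15, 55.8 and 38.2 in scramble and 90.4, 65.96 and 81.4 in knockout. The 6 lower were the TAF subunits Taf9, Taf5l and Taf12, with differences of -37.65, -36.91 and -34.50, and Mbip, Supt20 and Zzz3. For Taf12 the difference rested on knockout replicate 3, with 17.5 against 83.7 and 82.5 in its fellow libraries and 95.3 to 96.1 in scramble.

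Of 13 other acetyltransferase promoters, 4 were higher (Kat6b, Kat7, Ncoa1 and Ncoa2) and 1 lower, Ep300 (30.8 and 7.7%), with a median difference of 10.96. After removal of the GC trend 3 were higher and 2 lower, with a median of 4.92. Kat6b had 8.69, 30.9 and 34.5 in scramble and 49.1, 71.3 and 77.8 in knockout. Ep300, the p300 acetyltransferase, stayed near the top of the list, with 98.6, 96.1 and 98.2 against 87.9, 93.9 and 89.3. Among 17 deacetylases and sirtuins 1 was higher (Sirt1) and 2 lower (Hdac3 and Hdac10), and among 14 enzymes that write or erase H3K9 methylation 4 were higher, Kdm1a and Kdm4c by 28.05 and 30.60 among them, and 2 lower. Of 18 acetyl-lysine readers 0 were higher and 2 lower, Taf1 and Mllt3. These 3 groups had 2 and 2, 5 and 2, and 0 and 1 after removal of the GC trend. The readers had 4 higher and 3 lower by -log10 p, and 6 and 2 without knockout replicate 3. Both settings also raised the counts over all tested promoters.

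Replication-dependent histone genes, which supply histones in S phase, lie mostly on chromosomes 13 and 3. Of 64 tested, 25 lay lower without overlap (39.1%), 0 higher and 39 with overlap, with a median difference of -17.36. Hist1h2bm had 88.0, 63.8 and 87.6 in scramble and 46.3, 10.5 and 16.3 in knockout, a difference of -55.41 ± 12.78 (SE; limma, adjusted p = 0.0717). Hist1h1c, a linker histone, differed by -27.02 and Hist3h2a by -31.02. The 64 genes rested on 40 separate sets of peaks, because neighbours such as Hist1h2ad and Hist1h2bg shared one, and near-identical copies can share reads. Their windows were low in GC (median 49.6%), and with the GC trend removed 15 were lower and 2 higher, with a median of -7.55. Of the 23 whose summit stayed within 1000 bp of the start, 7 were lower and 0 higher. Upstream of these genes CCAAT was found in 79.7% and TATAAA in 42.2%, against 28 and 3.2% of tested promoters.

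Of 21 antioxidant genes driven by NRF2, 9 ranked lower without overlap (42.9%) and 1 higher, and 11 overlapped, with a median difference of -6.54. Slc7a11, the cystine importer, had 83.3, 70.8 and 66.5 in scramble and 14.9, 20.4 and 60.8 in knockout, so that knockout replicate 3 came close to scramble. Gclc, which makes the first step of glutathione synthesis, had 96.9, 89.5 and 93.7 against 73.2, 62.5 and 68.0, a difference of -25.44 ± 5.92 (SE; limma, adjusted p = 0.0717). The others were G6pdx, Prdx1, Gsta4, Txnrd1, Taldo1, Nqo1 and Hmox1, and Srxn1 was the gene that ranked higher, by 15.72. Nqo1 and Hmox1 were low in both groups and differed by -6.54 and -5.43. With the GC trend removed 6 were lower and 1 higher, and Hmox1 then differed by 2.88, the other way.

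Of 25 epithelial and mammary luminal promoters tested, 11 were higher without overlap (44.0%), 0 lower and 14 overlapped, with a median difference of 4.42, or 1.95 with the GC trend removed. Cldn7, the tight junction protein claudin 7, stood at 3.07, 0.11 and 0.90 in scramble and 23.4, 25.1 and 25.3 in knockout, with fold enrichments of 6.18, 3.24 and 4.28 against 20.8, 22.5 and 18.7. Its difference of 23.24 ± 2.48 (SE) had the smallest adjusted p of all promoters (limma, 0.0618, tied with Hoxa4). Epcam, the epithelial adhesion molecule, had 12.3, 14.3 and 15.9 against 53.5, 44.1 and 47.2. Both promoters lay low in scramble and in the lower or middle part of the list in knockout, with peaks of 200 to 1105 bp against 1913 to 2323 bp at Cldn7 and 561 to 1730 bp against 3315 to 4087 bp at Epcam.

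Grhl2, a factor that maintains epithelial genes, had 39.1, 35.2 and 74.5 in scramble and 99.5, 98.1 and 98.5 in knockout. The strongest point of its peak lay 685 to 727 bp from the start in scramble and 1031 to 1107 bp in knockout. The others were Cd24a, Erbb2, Ocln, Ovol1, Cldn3, Esrp1, Elf3 and Grhl1, by 4.42 to 21.67. Ovol2, an epithelial repressor of mesenchymal genes, had a peak in 3 of 3 knockout and 0 of 3 scramble libraries. Not all epithelial genes moved: Cdh1, E-cadherin, differed by 3.38 and Krt8 by 4.14, with overlap. With the GC trend removed 7 were higher and 1 lower. Of the 20 whose summit stayed within 1000 bp of a start site of the gene in every library, 8 were higher and 0 lower.

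Of 16 basal and mesenchymal promoters tested, 0 were higher and 4 lower without overlap (25.0%), with a median difference of -7.83. With the GC trend removed 1 was higher and 4 lower, with a median of -13.47. Beside Foxc2 they were S100a4, which marks motile and mesenchymal cells, with 59.8, 36.2 and 62.7 in scramble and 24.7, 6.59 and 31.0 in knockout, Sparc, a matrix protein, with 34.7, 44.7 and 25.8 against 5.73, 8.12 and 12.9, and the growth factor Tgfb1, by -25.66. Vim, vimentin, overlapped (-7.35). The basal keratin Krt14 went the other way, with a peak in 3 of 3 knockout and 0 of 3 scramble libraries, and 8 of the 26 listed genes, Krt5, Cdh2 and Acta2 among them, had no peak in any library.

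Of 20 AP-1 and Myc network genes tested, 7 were higher without overlap (35.0%), 0 lower and 13 overlapped. Their median difference was 6.05, and it was 2.15 at equal calling depth, 1.72 by -log10 p and 3.8 with the GC trend removed. Jund had 57.1, 60.2 and 66.04 in scramble and 93.9, 91.9 and 96.9 in knockout, a difference of 33.10 ± 6.22 (SE; limma, adjusted p = 0.0629). The small MAF proteins Maff and Mafk differed by 41.61 and 35.79, Maff with 24.7, 18.96 and 6.94 against 68.1, 56.6 and 50.8. Fosl2, Max, Mxi1 and Mlxip made up the rest. The first-described members did not follow, since Fos, Jun and Myc overlapped between the groups with differences of -3.90, -16.71 and 6.95. With the GC trend removed 6 were higher and 1 lower.

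**Figure D4:**
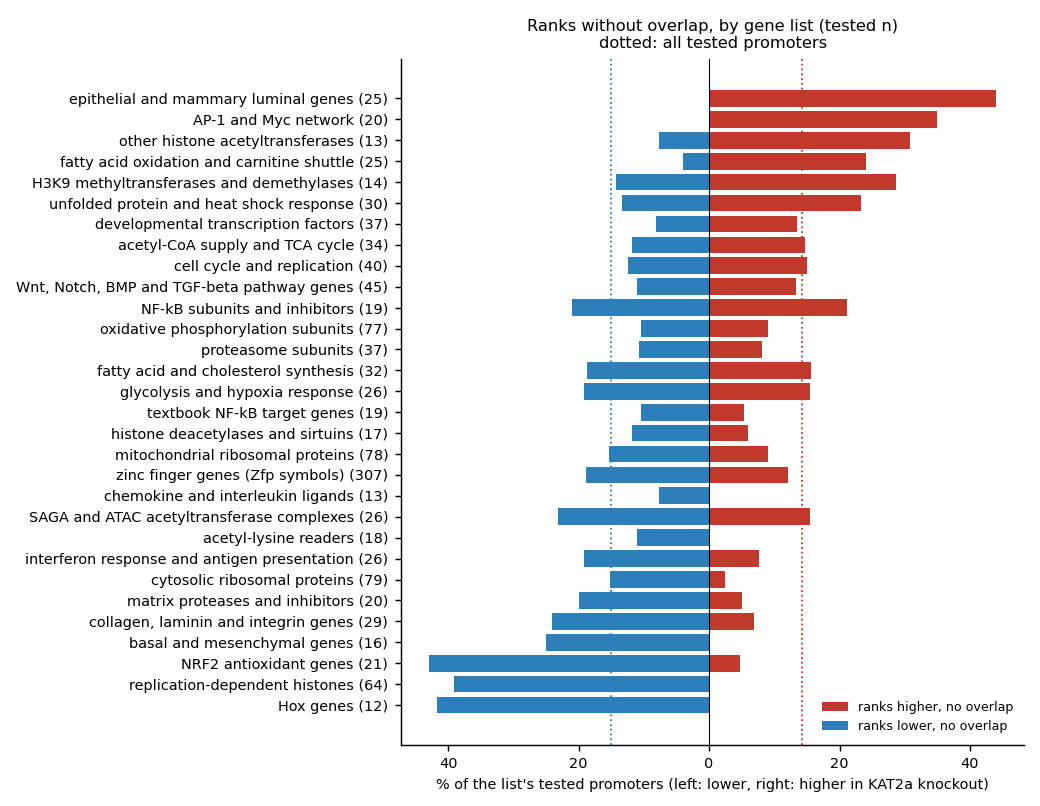
Share of each gene list's tested promoters whose ranks did not overlap, to the right for higher and to the left for lower in KAT2a knockout, with the number tested in brackets and lists under 10 tested left out. Dotted lines are the shares over all tested promoters. Epithelial genes (11 of 25) and the AP-1 and Myc network (7 of 20) have no member lower, and Hox genes (5 of 12) and histones (25 of 64) have none higher.

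Of 25 promoters of fatty acid oxidation tested, 6 were higher (24%), 1 lower (4.0%) and 18 overlapped, with a median difference of 5.08, or 8.09 with the GC trend removed (7 higher, 0 lower). Cpt1a, the mitochondrial gate for long-chain fatty acids such as palmitate, had 15.2, 41.3 and 28.8 in scramble and 50.7, 57.6 and 57.4 in knockout, a difference of 26.82 ± 9.29 (SE; limma, adjusted p = 0.152). Echs1, Ppard, Acads, Acadl and Etfb were the others, and Acadm ranked lower by -18.24. The gene that makes acetyl-CoA from acetate moved the other way, as Acss2 had 77.9, 62.6 and 68.3 against 22.4, 24.7 and 15.6, a difference of -48.69 ± 8.80 (SE; limma, adjusted p = 0.0629).

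Over the 34 tested promoters of acetyl-CoA supply and the TCA cycle, 5 were higher and 4 lower, as with the GC trend removed. Idh2, mitochondrial isocitrate dehydrogenase, differed by 51.69 and Sdhb, a subunit of complex II, by 42.24, though scramble values of Sdhb ran from 11.1 to 75.4. Pdhb and Pdhx of the pyruvate dehydrogenase complex differed by -40.29 and -30.49. Acly, which makes acetyl-CoA from citrate in the cytosol, had 40.0, 49.3 and 72.7 against 65.6, 35.9 and 63.0 and overlapped. Lipid synthesis split evenly (5 higher and 6 lower of 32), as did glycolysis and hypoxia (4 and 5 of 26), with Hk1 differing by 33.19 and Hif1a by -25.13. They had 4 and 4, and 3 and 7, after removal of the GC trend.

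The study's interest in NF-kB made its genes a group of their own. Of 19 promoters of subunits and inhibitors, 4 ranked higher and 4 lower (21.1% each), with a median difference of -10.29. After removal of the GC trend 3 were higher and 6 lower, with a median of -8.26. Rela, which encodes p65, overlapped, with 47.5, 66.9 and 69.3 in scramble and 84.3, 50.8 and 74.8 in knockout (8.71 ± 11.54 SE; limma, adjusted p = 0.692). With the GC trend removed its difference was -2.63, and ranked by -log10 p it was 14.06 (limma, adjusted p = 0.0445). Relb had 25.0, 18.5 and 23.5 against 73.7, 59.5 and 58.9, a difference of 41.71 ± 8.54 (SE; adjusted p = 0.0632), and Ikbkb, a kinase that triggers the pathway, differed by 41.05, Nfkbia by 30.93 and Traf6 by 29.22.

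Among the lower NF-kB genes, Rel had 81.3, 84.4 and 83.2 in scramble and 55.6, 47.9 and 51.4 in knockout, and Tnfaip3, the feedback inhibitor A20, Map3k14 and Ikbkg were the others. The direction thus differed among members of both roles, activators and inhibitors. Of 35 textbook NF-kB target genes, 13 (Tnf, Il1b, Ccl2, Cxcl2 and Mmp9 among them) had no promoter peak in any library, and of the 19 tested 1 was higher (Vegfa) and 2 lower (Vcam1 and Ptgs2), against 3 higher and 2 lower with the GC trend removed.

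Other groups had members on both sides or few that moved. Stress genes of the unfolded protein and heat shock responses had 7 higher and 4 lower of 30. Ern1, the sensor IRE1, had 81.9, 81.6 and 90.7 in scramble and 45.0, 47.9 and 18.9 in knockout, while its substrate Xbp1 had 21.2, 93.0 and 95.9 against 99.7, 99.8 and 99.6, a difference that rested on scramble replicate 1. Cell cycle and replication genes had 6 higher and 5 lower of 40, interferon and antigen presentation genes 2 and 5 of 26, and collagen, laminin and integrin genes 2 and 7 of 29.

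Matrix proteases had 1 higher and 4 lower of 20, Wnt, Notch, BMP and TGF-beta genes 6 and 5 of 45, developmental transcription factors 5 and 3 of 37, and chemokine and interleukin ligands 0 and 1 of 13, the 1 being Il7. Clustered protocadherins had 0 and 1 of 2. Cytosolic ribosomal proteins had 2 higher and 12 lower of 79 and mitochondrial ones 7 and 12 of 78. Oxidative phosphorylation had 7 and 8 of 77 and the proteasome 3 and 4 of 37. Among 307 genes with Zfp symbols 37 were higher and 58 lower, with a median difference of -2.16 that became 4.19 with the GC trend removed (70 higher, 30 lower). The same adjustment turned the balance in other groups: Wnt, Notch, BMP and TGF-beta genes then had 1 higher and 11 lower, developmental transcription factors 3 and 9, interferon genes 8 and 4, mitochondrial ribosomal proteins 14 and 5, oxidative phosphorylation 17 and 6 and stress genes 4 and 6. Chemokine and interleukin ligands had 2 and 1, the proteasome 6 and 2 and the protocadherins 1 and 0. The other counts were 5 and 5 for collagens, laminins and integrins, 1 and 9 for matrix proteases, 8 and 9 for cytosolic ribosomal proteins and 8 and 6 for the cell cycle.

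Promoters gained from the lists far outnumbered those lost. A peak was called in 3 of 3 knockout and 0 of 3 scramble libraries at 152 promoters (0.699% called of 21755), and in 3 of 3 scramble and 0 of 3 knockout libraries at 12 (0.0552% called). At equal calling depth the first count was 273, and with the lists cut to 22640 peaks each it was 258, against 5 for the second. Both settings can only remove peaks, and the scramble lists were longer and called deeper, so these counts do not test the imbalance. The 152 were weak peaks: their median width was 497.5 bp, their median fold enrichment 6.12 and their median place the 3.1 percentile of their library. Their windows had a median of 96.5 CG in 2 kb, against 91.0 at promoters with a peak in all 6 libraries and 63.0 over all genes. Of the 152, 17 had a peak in all 6 CPT1a knockout libraries and 32 in none of them.

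By rank within the libraries that called them, the strongest of the 152 included Ltb, lymphotoxin beta, with fold enrichments of 15.2, 13.7 and 5.74 in the knockout libraries, though its strongest point lay 1379, 1564 and 929 bp from the start. Hs3st1, a heparan sulfate sulfotransferase, had 7.76, 13.0 and 12.2. Tert, the telomerase catalytic subunit, had 11.0, 9.51 and 10.9 with peaks of 672 to 754 bp, and Inhbb, the activin subunit, had 9.47, 10.1 and 11.4. Bik, a pro-apoptotic BCL2 relative, Pnpla3, a lipid droplet protein, Sulf2, which trims heparan sulfate, Eif3j2, Akap17b and Rapgef5 completed the 10. Rapgef5 was the one with no peak in any CPT1a knockout library. Ltb, Tert and Hs3st1 had one in 4 of those 6, and Inhbb in all 6.

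Of the 12 promoters with a peak in scramble alone, 9 have names other than gene models. Glyctk, glycerate kinase, and Bricd5 ranked highest, at 40.0 to 77.2 and 22.3 to 58.6 percentile of their libraries, but the strongest points of their peaks lay 2193 to 2301 and 2259 to 2648 bp from the start, outside the promoter window. The other 7 (Fam166a, Mctp1, Rab7b, Synpo2l, Stac3, Hydin and Catsperz) were weak, at or under the 6.7 percentile in all 3 libraries except for Fam166a in scramble replicate 2.

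The width of the strongest promoter peak changed in both directions at a few promoters. limma on log2 width called 6 promoters wider in knockout (0.0546% called) and 7 narrower (0.0637% called). Syt17, a synaptotagmin, went from 275, 222 and 268 bp to 1539, 1396 and 1349 bp, a log2 change of 2.49 (adjusted p = 0.0369). Dnmt3a, a DNA methyltransferase, went from 490, 521 and 452 bp to 1626, 1843 and 1630 bp, and Ephb6, an ephrin receptor, from 410, 414 and 420 bp to 1765, 1597 and 1401 bp. These 3 promoters had windows of 60.8 to 78.0% GC.

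Atp8a1, a phospholipid flippase, Tent4a, a poly(A) polymerase, and Phf13, a reader of H3K4 methylation, widened by 1.83, 1.36 and 1.31 on the log2 scale. Among those that narrowed, beside Hoxa4, Man2b1, lysosomal mannosidase, went from 4828, 4472 and 3959 bp to 1154, 1366 and 1058 bp. Its scramble peak had its summit 3005 to 3023 bp away and its knockout peak 219 to 280 bp away. Rplp0 and its neighbour Gcn1l1 lay under a single peak of 7462 to 8191 bp in scramble and had peaks of 2999 to 3559 bp at Rplp0 in knockout. Btrc, a substrate receptor of ubiquitin ligases, narrowed by 1.41 on the log2 scale.

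The number of width calls turned on single libraries: leaving out any library but scramble replicate 1 left 0 wider, and without scramble replicate 1 there were 41. Narrower calls numbered 7 without scramble replicate 1, 3 without scramble replicate 2, 1 without knockout replicate 2 and 0 without any of the other 3. Without overlap, 729 promoters were wider (6.64% called) and 2788 narrower (25.4% called). Merging peaks within 500 bp before measuring gave 133 wider and 4239 narrower by limma. The median promoter peak width per library, 2785, 2069 and 2161 bp against 2168, 2339 and 1742.5 bp, overlapped between the groups (difference of -255.2 bp, exact permutation test, p = 0.6).

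Values in the CPT1a knockout groups are set beside those in KAT2a knockout. Zfp1 had a mean percentile of 16.7 in scramble, 82.5 in KAT2a knockout, 84.7 in CPT1a knockout and 60.4 in CPT1a knockout with acetate. Rnf43 had 66.9, 9.58, 8.69 and 9.88, and Cp 69.0, 12, 3.37 and 8.79. Kat2a itself had 8.25, 29.9, 47.4 and 28.9. All 3 knockout groups share the scramble libraries as their control, so a difference that scramble libraries carry would appear in each.

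A direct comparison of the knockout groups takes no mean from the scramble libraries, though these enter the variance of the fit used. In a limma fit of all 12 libraries, added after the data were seen, KAT2a knockout differed from CPT1a knockout at 9 promoters higher (0.082% called) and 1 lower (0.00911% called), and from CPT1a knockout with acetate at 9 higher (0.0821% called) and 4 lower (0.0365% called). Against scramble the same fit gave 191 higher (1.74% called) and 300 lower (2.73% called). All 24 promoters named by rank, which were chosen by their difference from scramble, were called against scramble in that fit. None of the 24 was among those called against either CPT1a group. Hoxa4 varied within these groups, with means of 46.9 ± 45.4 and 43.4 ± 48.7 (SD, n = 3), so that its step down was not shared by every library.

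Cldn7 was called in each contrast of that fit. It stood at 0.88, 0.91 and 2.34 in CPT1a knockout and 0.13, 2.33 and 2.95 with acetate, below all 3 KAT2a knockout values, and differed by 23.22 ± 1.88 from the former (SE; limma, adjusted p = 3.49e-05). Ntn1, the guidance cue netrin 1, had 33.6, 31.1 and 31.3 in KAT2a knockout and 0.88 to 3.51 in both CPT1a groups, with scramble at 2.61, 2.90 and 22.95. Slc4a11, a membrane transporter, had 42.8, 32.4 and 47.1 against 5.57 to 17.8 in the 9 other libraries. Fam169a, Prss16, Spsb4 and Tmem56 were also higher than both CPT1a groups. Ggnbp2 had 44.8, 35.6 and 50.1, below the 75.6 to 98.8 of all other libraries, and was called lower than CPT1a knockout with acetate (adjusted p = 0.00826). Gmfg differed by 57.62 ± 10.76 from CPT1a knockout (SE; limma, adjusted p = 0.0606) and was not called, and it rests on the same distant peak.

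**Figure D5:**
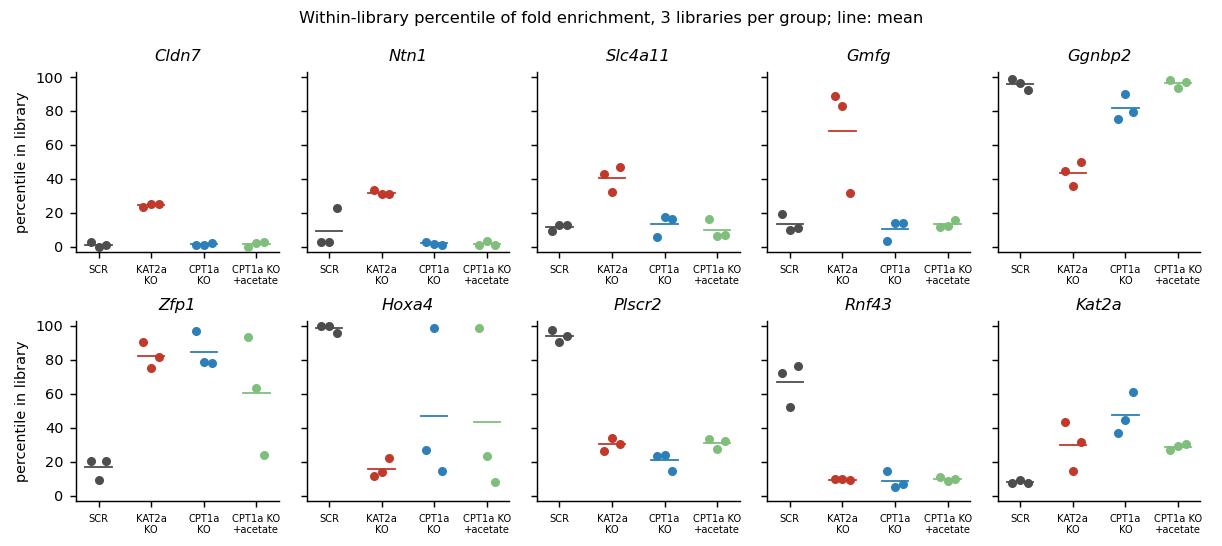
Within-library percentile of fold enrichment at 10 promoters in scramble (SCR), KAT2a knockout, CPT1a knockout and CPT1a knockout with acetate, with 3 libraries per group as points and their mean as a line. At Cldn7, Ntn1 and Slc4a11 the KAT2a knockout libraries lie above all others, and at Plscr2 and Rnf43 the scramble libraries do.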

How the data were processed

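H3K9ac ChIP followed by sequencing (ChIPmentation) was done on 4T1 spheroids. Lists of 3 KAT2a knockout and 3 scramble libraries were compared. The authors deposited 1 narrowPeak list per library, with no pooled list. Whether the input served as control in calling is not given in the sources used here. Its column 7 is the fold enrichment, a ratio over local background, and columns 8 and 9 are deposited as −log10 of p and q values. The submitters' processing notes name FastQC, Bowtie2, SAMtools, deepTools and MACS2 and the builds mm10 and dm6, and the study's methods name BWA as aligner. The lists reach down to a q of 1%. The methods describe a Drosophila spike-in, and no spike-in scaling was used here. The 12 input libraries were not analysed here.

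Start sites of 21755 protein-coding genes of chromosomes 1 to 19 and X were taken from GENCODE vM21 (93196 start sites), and a gene was given its peak of highest fold enrichment within 1000 bp of any start site. Depth was recovered from column 7 and the p-values, since MACS2 derives both from the same pileup and background. Read totals are not in the lists. Percentiles were tested with limma 3.58.1 in R 4.3.3, with an intensity trend, Benjamini-Hochberg adjustment over 10987 promoters and a threshold of 0.05. log2 widths were tested in the same way. Values with 1 per library were compared by an exact permutation test over 20 assignments. The scripts were tested on simulated data. Upstream sequences were read from the RefSeq copy of GRCm38.p6, the same build as mm10.

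Named promoters were the 12 largest differences in each direction among those without overlap of ranks, the 10 strongest called in a single group, up to 8 called by width, and Kat2a, Kat2b, Rela and Cpt1a. Symbols starting with Gm or holding Rik were counted and not named. From each gene list, members without overlap and some for contrast were named. The members and lists were chosen with earlier results of these data known, and lists were described by counts and medians without a test. Alternatives covered the ranked column, depth, list length, window, overlap, q threshold, GC content, merging of peaks, the libraries in the fit and each library left out.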

Additional observations from a re-analysis of the deposited data

How the results depend on the processing

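The count of promoters past the threshold by rank depended on the setting. It was 0 in both directions in the reported fit, with a window of 500 bp, an overlap of 200 bp or a −log10 q of at least 5, and with any single library left out (0 to 0). It was 1126 higher and 1221 lower by −log10 p, 191 and 300 with all 12 libraries, 92 and 95 at equal calling depth, 66 and 73 on normal scores, and 1 and 2 with the GC trend removed. Counts of ranks without overlap stayed within 1.5 times of 1568 and 1655 under every alternative run, with 2005 to 2276 higher and 2035 to 2389 lower when a library was left out.

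Width calls, 6 wider and 7 narrower, became 109 and 316 with all 12 libraries, 89 and 154 by bases of the window covered, 133 and 4239 with peaks merged, and 17 wider after the median change was subtracted. Leaving out a library gave 0 to 41 wider and 0 to 7 narrower. Widths without overlap, 729 wider and 2788 narrower, became 1185 and 1582 after the median was subtracted, 1346 and 1753 by bases covered, 258 and 6365 with peaks merged, and 748 to 1980 and 2809 to 4223 when a library was left out.

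Promoters called in knockout alone numbered 273 at equal depth, 258 at equal list length and 158 to 221 without a library. Those in scramble alone numbered 5 at equal list length and 13 to 31 without a library, 31 without scramble replicate 2 and 19 without scramble replicate 3. The difference in promoters called ran from 257.3 to 382.8 and that in median width from -389.8 to -31.8 bp without a library. Of 364 values of 28 named promoters under alternatives, 1 was reversed, Rela with the GC trend removed (-2.63). Gmfg kept its sign but fell from 54.69 to 0.65 with an overlap of 200 bp and 0.66 with a window of 500 bp. Epithelial genes higher were 7 and histones lower 15 with the GC trend removed, and Hox genes lower were 9 by −log10 p. The cause of these changes was not tested.

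Replicate numbers were shared between the groups, but same-numbered libraries did not deviate together: correlations of their deviations were -0.043, -0.030 and 0 for ranks and 0.029, -0.040 and 0.068 for widths. A replicate block gave 0 calls by rank and 0 wider and 0 narrower, and left the difference in promoters called at 312.0. Each library's depth limits which weak peaks are listed, and a promoter without a peak is not shown to lack the mark.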
